A study of Mus musculus with 24 samples.

Results

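Cytosolic ribosomal protein genes were followed in mouse interscapular brown fat, the heat-producing pad between the shoulder blades. Members were taken by symbol, namely the genes named Rpl or Rps followed by a digit together with Rplp0, Rplp1, Rplp2 and Rpsa, leaving out pseudogene names and the S6 kinases. The rule found 87 members among the 13162 genes that appear in any of 5 deposited tables. Of these, 47 carry large subunit names and 31 carry small subunit names, and the 78 together are called subunit genes here. The other 9 are paralogs, related copies and a binding protein that the names also catch (Rpl3l, Rpl7l1, Rpl22l1, Rpl36al, Rpl39l, Rps4l, Rps27l, Rps27rt and Rps19bp1), and they were set apart. The retrogene Rpl37rt, which GENCODE M21 lists as a transcribed processed pseudogene like Rps4l, is counted among the 47. KO mice carried floxed Hdac3 with Cre recombinase under the Ucp1 promoter, which is active in brown adipocytes, and Control mice carried floxed Hdac3 without Cre. Hdac3 encodes a histone deacetylase. All mice were C57BL/6 males of 10 to 12 weeks, sampled at ZT10 of the light cycle. Each genotype had a group kept at 22 °C, a group that recovered at 22 °C for 24 h after 24 h of cold at 15 °C, and a group that recovered for 7 d, with 4 libraries in each of the 6 groups. The study asks how long an effect of cold exposure lasts, and whether it does so without Hdac3.

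The cytosolic ribosome is built from a small subunit, which reads the messenger RNA, and a large subunit, which joins amino acids, and each holds its own set of ribosomal proteins beside the ribosomal RNAs. Most of these proteins are made in equal amounts, so their genes are usually transcribed and translated together. Their transcripts typically start within a run of pyrimidines, the terminal oligopyrimidine tract, through which mTORC1 and the RNA-binding protein LARP1 set how strongly they are translated. Brown fat enlarges its mitochondria and makes much new protein in the cold.

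The sequences of 2 paralog pairs are shown because they decide how far reads can be told apart. The coding sequence of the retrogene Rps27rt on chromosome 9 is identical to that of Rps27 on chromosome 3 at all 255 bases, in GENCODE M21 transcripts. Rps27l, also on chromosome 9, differs from Rps27 at 61 of 255 bases, and Rpl39l, on chromosome 16, differs from the X-linked Rpl39 at 23 of 156 bases. Capitals mark the bases of the paralog that differ from its partner.
Rps27: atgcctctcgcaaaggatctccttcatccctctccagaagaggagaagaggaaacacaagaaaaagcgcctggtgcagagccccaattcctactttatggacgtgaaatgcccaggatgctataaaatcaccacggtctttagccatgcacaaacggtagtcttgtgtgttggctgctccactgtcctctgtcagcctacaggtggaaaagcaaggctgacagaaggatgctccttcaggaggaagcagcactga
Rps27l: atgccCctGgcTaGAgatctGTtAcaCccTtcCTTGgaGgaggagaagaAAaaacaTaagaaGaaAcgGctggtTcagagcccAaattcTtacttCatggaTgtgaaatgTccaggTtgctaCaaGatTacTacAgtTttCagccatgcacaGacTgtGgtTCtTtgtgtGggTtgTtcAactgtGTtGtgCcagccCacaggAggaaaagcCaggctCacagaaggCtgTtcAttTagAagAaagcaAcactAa
Rpl39: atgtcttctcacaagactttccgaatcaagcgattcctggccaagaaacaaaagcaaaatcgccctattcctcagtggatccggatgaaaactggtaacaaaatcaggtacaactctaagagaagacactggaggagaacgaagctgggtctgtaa
Rpl39l: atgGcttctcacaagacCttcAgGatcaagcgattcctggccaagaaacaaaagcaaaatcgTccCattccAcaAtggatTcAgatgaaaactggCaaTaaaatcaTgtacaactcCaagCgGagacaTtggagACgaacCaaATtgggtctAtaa

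The deposited means of Rps27 and Rps27rt followed the shared sequence. CPM values rebuilt from them differed between the genes by between 0.365% and 0.586% in each of the 6 groups, so the pair is best read as 1 measurement. Counts and sums over the 87 members still hold both genes of the pair and were not corrected for this. Identity to the partner was 87.9% for Rpl36al, 73.3% for Rpl3l, 66.9% for Rpl22l1 and 53.0% for Rpl7l1 over aligned coding bases. Stretches shared with other annotated genes, on either strand, extend the problem to most of the family. The other gene may carry a pseudogene name, such as Rpl10-ps3 for Rpl10, or be another kind of gene, such as Wdr38 for Rpl35. A single transcript stood for each member, and its length can differ from the deposited one (3706 and 502 bases for Rps20). In 83 of 87 members at least one stretch of 50 bases also occurs in a transcript of another annotated gene, the median share of such stretches was 53.6%, and 49 members exceeded 50%. The sources used here do not say how the authors' counting treated such reads, so every member's level is uncertain to that extent.

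Start site regions are shown for 6 members that the comparisons turn on, with long, short and no pyrimidine runs. Each run of 60 bases holds 40 bases before and 20 from the RefSeq start site (build GRCm38.p6), and capitals mark the longest pyrimidine run that touches the 10 bases on either side of the start, where it has at least 5 bases.
Rpl7a: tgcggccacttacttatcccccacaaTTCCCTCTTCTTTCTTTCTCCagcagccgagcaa (chr2:26910767-26910826, + strand)
Rps26: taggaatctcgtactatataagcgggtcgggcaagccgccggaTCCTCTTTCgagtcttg (chr10:128626487-128626546, - strand)
Rps27: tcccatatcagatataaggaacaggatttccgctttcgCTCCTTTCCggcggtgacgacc (chr3:90213629-90213688, - strand)
Rpl22l1: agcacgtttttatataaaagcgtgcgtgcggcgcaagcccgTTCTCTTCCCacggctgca (chr3:28805468-28805527, + strand)
Rpsa: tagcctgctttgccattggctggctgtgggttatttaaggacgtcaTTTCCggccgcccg (chr9:120127726-120127785, + strand)
Rps3a1: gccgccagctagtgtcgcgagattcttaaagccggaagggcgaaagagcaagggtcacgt (chr3:86142649-86142708, - strand)

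Rpl7a starts within a run of 21 pyrimidines, Rpl22l1 has a run of 10 bases, and Rps26 and Rps27 have runs of 9 bases. The run of Rpsa is 5 bases long, and the longest run at the annotated start of Rps3a1 is 2 bases. Promoters of 66 of the 87 members were in the RefSeq table. A run of at least 8 pyrimidines at the start was found in 40.9% of these 66, against 13.4% of the 26959 promoters of other genes, and a run of at least 10 in 30.3% against 6.77%. The median run was 6 bases in members and 4 bases in other genes. Strings were also searched on both strands of the RefSeq promoter windows. CTCTTTC was found in 25.8% of members and 7.97% of other promoters, and CTTTC, which lies within it, in 80.3% and 57.1%. GGAAGT was found in 48.5% of members and 24.0% of other promoters, GGGCGG in 59.1% and 35.9%, and GCCATNTTG in 6.06% and 2.64% of them. The shares of CACGTG (7.58% and 7.24%), TATAAA (9.09% and 14.2%) and CCAAT (31.8% and 37.9%) in members and other promoters were closer or lower. These matches describe letters and were not tied to any factor.

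The authors deposited for each comparison a log2 fold change, its adjusted p-value from edgeR and a mean per group, read as RPKM (reads scaled to gene length and to library size). The tables hold no value per library, so a mean here has no spread of its own, and the adjusted p carries the replicate error. Errors and 95% intervals of fold changes were rebuilt from the deposited p. The labels speak of biological replicates without tying each library to 1 mouse, so p-values measure the spread between libraries. Library totals ran between 4.64e+06 and 1.25e+07 reads, with a mean of 8.39e+06 ± 1.90e+06 (SD, n = 24). At that depth 80 members had at least 100 reads per library in every group on average and 7 had fewer. The targeted gene Hdac3 was lower in KO at each time in the authors' deposited tables, with 8.57, 6.43 and 7.43 RPKM in KO at 22 °C, 24 h and 7 d, against 26.1, 27.1 and 25.4 RPKM in Control. The 7 brown adipocyte markers were all listed and summed to 1296 RPKM in KO and 5466 RPKM in Control at 22 °C, and to 6573 RPKM or more in the recovery groups. Of other cells, white adipocyte markers summed to 308 RPKM in KO and 84.8 RPKM in Control at 22 °C, and macrophage markers to 174 RPKM in Control at 24 h and to between 83.3 and 111 RPKM in the other groups. Skeletal muscle markers summed to 594 RPKM in KO and 711 RPKM in Control at 7 d, against 117 to 213 RPKM in the other groups. T cell markers (4 of 9 listed) summed to at most 4.41 RPKM, in KO at 22 °C, against 1.08 RPKM in Control at 22 °C. B cell markers (2 of 8 listed) summed to at most 1.73 RPKM. Erythroid markers summed to 1147 RPKM in KO and 676 RPKM in Control at 7 d, and to between 653 and 995 RPKM in the other groups. Whole tissue was sequenced, so a change in cell make-up and a change of RNA per cell cannot be told apart, and the part of these markers in the results below was not tested.

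Per length, the acidic stalk proteins led the family. Rplp2, which with Rplp1 forms the flexible stalk that recruits elongation factors, had deposited means of 494, 420 and 483 RPKM in KO and of 627, 531 and 433 RPKM in Control at 22 °C, 24 h and 7 d. Rplp1 had 262, 306 and 293 RPKM in KO, against 452, 476 and 346 RPKM in Control at those times, so that Control was the higher genotype at each time on the RPKM scale. Rps29, a small zinc-binding protein of the small subunit, came next with 241, 320 and 332 RPKM in KO and 372, 451 and 357 RPKM in Control. The lowest members on the RPKM scale were Rpl3l (0.30 to 1.97 RPKM), Rpl39l (0.81 to 5.92 RPKM) and the retrogene Rpl37rt (2.04 to 3.39 RPKM), and Rpl39l reached at most 42.3 reads per library on average. The median member stood at 111, 122 and 115 RPKM in KO and at 152, 155 and 121 RPKM in Control. The order of neighbours in this ranking cannot be tested on means without a spread.

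Summed over the 87 members, ribosomal protein transcripts took 0.778%, 0.805% and 0.785% of library totals in KO at 22 °C, 24 h and 7 d, and 1.02%, 1.01% and 0.792% in Control. The KO groups lay close together, whereas the Control share was higher at 22 °C and 24 h and stood at the KO level at 7 d. The large subunit genes held 0.440%, 0.460% and 0.449% in KO and 0.574%, 0.572% and 0.450% in Control. The small subunit genes held 0.314%, 0.318% and 0.308% in KO and 0.420%, 0.406% and 0.315% in Control. As a share of reads in listed genes, the members took 1.19%, 1.07% and 1.04% in KO and 1.55%, 1.39% and 1.10% in Control. Part of the gap lies in the scale. RPKM means leave out the authors' normalization factors, and the median log2 ratio of KO to Control over all genes was -0.25 at 22 °C, -0.19 at 24 h and -0.08 at 7 d. The members' median ratios were -0.38, -0.32 and -0.02, which leaves -0.13, -0.13 and 0.06 relative to all genes.

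**Figure D1:**
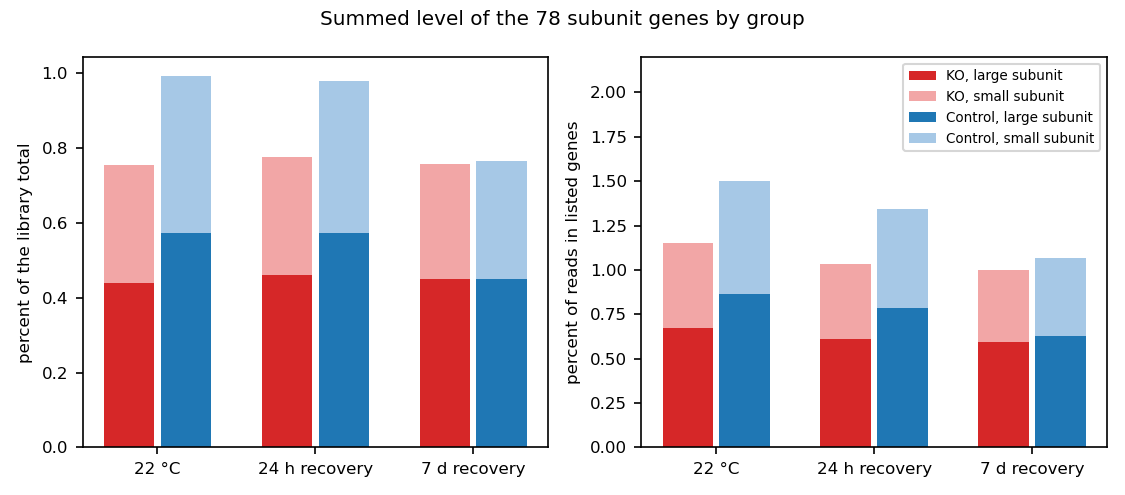
Summed level of the 78 subunit genes in each group, as percent of the library total (left) and percent of reads in listed genes (right), with KO bars left of Control bars and large subunit genes below small subunit genes. Bars are sums of the authors' group means and have no error bars because the tables used here hold group means. Control stands above KO at 22 °C and at 24 h of recovery and is close to it at 7 d.

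At 22 °C, 12 of 78 subunit genes were called lower and none higher in KO brown fat, which is 15.4%, against 18% of all genes called lower. Of the 86 members listed in the authors' deposited table, 2 were higher and 13 lower at adjusted p under 0.05, against 16.3% of all genes higher and 18% lower. The share of members called lower was therefore near that of all genes, and the share called higher was below it. The deposited median was -0.12 log2 over members and -0.01 over all 12710 genes, and 68 of 86 values were below 0. All 12 subunit genes called were lower, 6 from each subunit, and both members called higher were set apart. Among listed genes above a floor of 5 on the average log2 CPM, 16.7% of 78 members and 47.4% of 4922 other genes were called. The floor removes weakly expressed genes and does not match the sets in abundance. These 78 are not the subunit genes, since the floor keeps Rpl7l1, Rps27l and Rps27rt and drops Rpl35, Rps16 and Rpl37rt.

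Rpsa, a small subunit protein that also serves as a laminin receptor, fell the most. Its deposited mean was 102 RPKM in KO, against 191 RPKM in Control, with a log2 fold change of -0.66 (SE 0.13, adjusted p = 7.2e-06). Rplp1, of the stalk, fell by 0.54 on the deposited log2 scale (SE 0.13, adjusted p = 3.3e-04), at 262 RPKM in KO and 452 RPKM in Control. Its partners were not called, with -0.11 for Rplp2 (adjusted p = 0.60) and -0.17 for Rplp0 (adjusted p = 0.32), the stalk base that is often used as a reference gene, in the authors' deposited table. Of other large subunit genes, Rpl35a had 45.6 RPKM in KO and 74.8 RPKM in Control (log2 -0.47, adjusted p = 0.0024), as deposited. Rpl36 fell by 0.45 (adjusted p = 0.0029). Others called lower were Rpl3, Rpl8, Rpl21, Rps7, Rps20, Rps26, Rps27l and Rps29, with deposited values between -0.53 and -0.34. Rps6, the substrate of the S6 kinases, had 53.6 RPKM in KO and 63.3 RPKM in Control and a deposited log2 fold change of 0.00.

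Ratios of the RPKM means exceed these fold changes because of the scale described above. At 22 °C, 83 of 87 members had the lower mean in KO before centring on all genes and 68 after it.

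**Figure D2:**
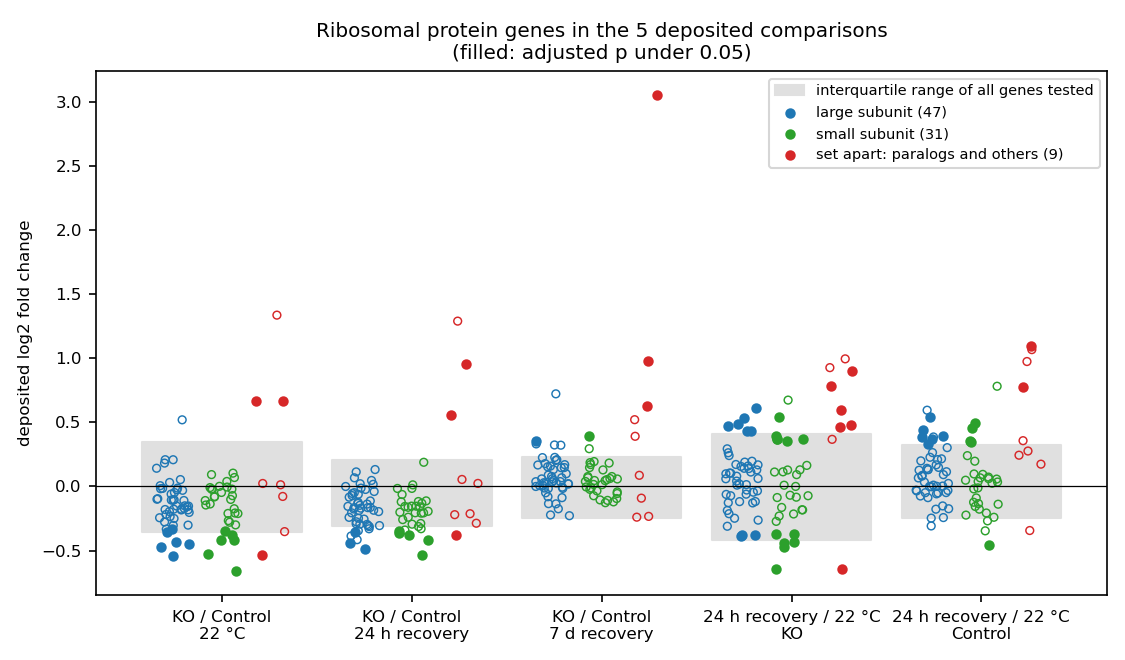
Deposited log2 fold changes of the ribosomal protein genes in the 5 comparisons, first over second group as named on the x axis. Each point is a gene, coloured by large subunit, small subunit or set apart, filled where the authors' adjusted p is under 0.05, and grey boxes span the interquartile range of all genes tested. Subunit genes lie mostly within the boxes, with all subunit genes called for KO against Control at 22 °C and 24 h below 0, while genes set apart hold the highest values.

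After 24 h of recovery 8 of 78 subunit genes were called lower and none higher in KO, which is 10.3%, against 7.96% of all genes called lower. Of 87 members in the authors' deposited table, 2 were higher and 9 lower, against 10.5% and 7.96% of all genes, so the share of members called lower was near that of all genes. The deposited median was -0.17 for members and -0.05 for all genes, and 74 of 87 values were below 0. All 8 subunit genes called were lower, 3 from the large and 5 from the small subunit, and the 2 members called higher were set apart. Rps20, a small subunit protein, had 128 RPKM in KO and 206 RPKM in Control (log2 -0.53, SE 0.15, adjusted p = 0.0050). Rplp1 had 306 and 476 RPKM (log2 -0.49, adjusted p = 0.0035), and Rpl36 had 127 and 190 RPKM (log2 -0.44, adjusted p = 0.0080), in KO and Control of the deposited table. Rps26 fell by 0.41 (adjusted p = 0.0079), and the shared Rps27 and Rps27rt reads by 0.38 (adjusted p = 0.048). Rps19, Rpl8 and Rps29 complete the genes called lower. Rpsa had 153 RPKM in KO and 210 RPKM in Control, and its deposited value of -0.31 did not pass (adjusted p = 0.087). In all, 6 members were lower at both 22 °C and 24 h, namely Rpl8, Rpl36, Rplp1, Rps20, Rps26 and Rps29, which is 46.2% of the 13 and 66.7% of the 9. The overlap over all genes was not counted, so these shares have no background to be read against.

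The KO effects at these times rest on different libraries, so their difference could be tested gene by gene. No member passed for 24 h minus 22 °C (0 of 75 with an error, against 18.2% of all genes, 10.8% higher and 7.39% lower), by a normal test on the deposited fold changes with Benjamini-Hochberg adjustment over all genes, and 4 had an unadjusted p under 0.05. The median difference was -0.01 over 86 members, with 42 above and 44 below 0. The smallest adjusted p was 0.061, for Rps19, whose KO effect was -0.36 at 24 h and 0.07 at 22 °C. In simulated data for this comparison, 4 of 63 differences of 0.5 log2 were recovered. For differences of 1 and 2 log2 it was 22 of 62 and 52 of 64. Simulated errors came from all genes, with few true differences among them, so the share found among members is not known. A lack of calls here does not show that the KO effects were equal.

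At 7 d of recovery no subunit gene was lower in KO past the threshold. The deposited table called 5 members higher and 0 lower of 87, against 9.18% and 6.14% of all genes. The members' median was 0.05 on the deposited scale, with 59 of 87 above 0, but -0.02 in uncentred ratios of the means, so no direction of the family can be given at this time. Of subunit genes, Rps28 had 144 RPKM in KO and 114 RPKM in Control (log2 0.39, SE 0.14, adjusted p = 0.044), and Rpl9, at the large subunit, had 342 RPKM in KO and 281 RPKM in Control (log2 0.35, SE 0.13, adjusted p = 0.048). The others called were Rpl39l, Rps4l and Rpl7l1, described with the paralogs below. Rpsa (-0.13), Rplp1 (-0.17), Rplp0 (0.06) and Rps6 (0.05) were not called in the deposited table, and their adjusted p were 0.46 or more.

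Set against 22 °C, the KO effect at 7 d lay higher for most members. The difference was above 0 for 77 of 86 members, with a median of 0.22 log2, against 50.5% and a median of 0.01 for all genes. Members rest on the same libraries and are not independent replicates, so counts of values above or below 0, here and elsewhere, are descriptive. Of 68 members with an error, 3 passed the test of the difference, all higher, against 14.8% of all genes, 9.53% higher and 5.29% lower. Rpl8, a protein of the peptidyl transferase region, had a KO effect of 0.03 at 7 d and -0.43 at 22 °C, a difference of 0.46 (SE 0.16, adjusted p = 0.029). The KO effect on Rpsa was -0.13 at 7 d and -0.66 at 22 °C, a difference of 0.53 (SE 0.19, adjusted p = 0.036), and that on the paralog Rpl7l1 was 0.63 and 0.02, a difference of 0.61 (SE 0.22, adjusted p = 0.042). Rpl8 was named after its value was seen. Against 24 h, 83 of 87 differences were above 0 with a median of 0.24, but 0 of 68 passed (0.201% of all genes did, 0.115% higher and 0.0863% lower), 13 had an unadjusted p under 0.05 by the normal test, and the smallest adjusted p was 0.60.

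**Figure D3:**
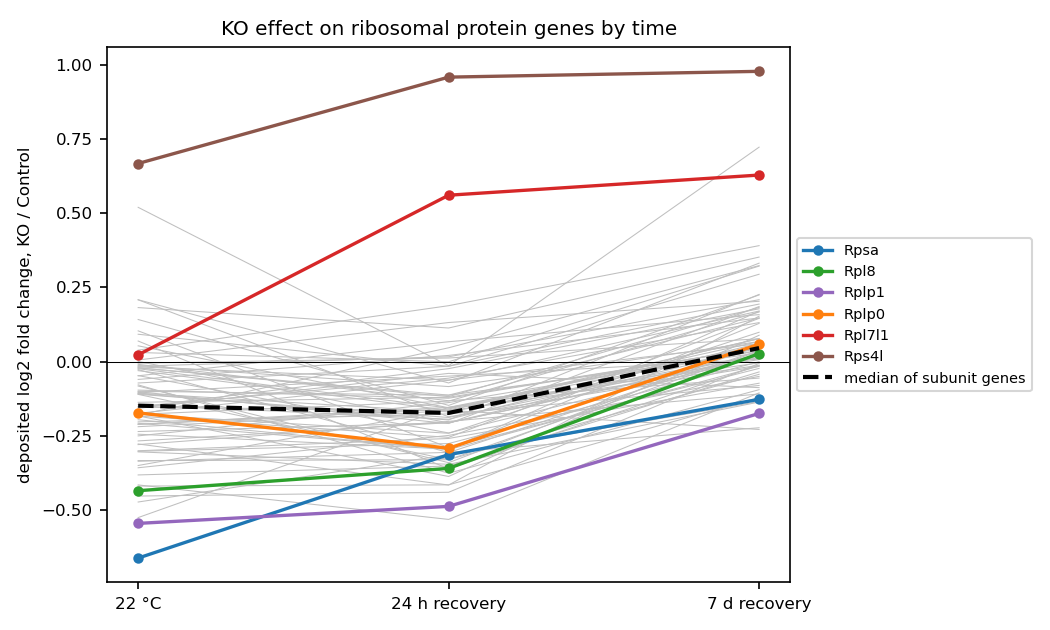
Deposited log2 fold change of KO against Control for the 78 subunit genes (grey lines), their median (dashed) and 6 named members at 22 °C, 24 h and 7 d of recovery. The dashed median lies at -0.15, -0.17 and 0.05, and Rps4l and Rpl7l1 lie above 0 throughout. The lines join separate groups of mice and not repeated measures.

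With 24 h of recovery, 27 members changed in KO and 13 in Control, in both directions. The test of KO effects at 24 h and 22 °C given above is also the test of recovery between the genotypes, and no member passed it, apart from Rpl7l1 when the recovery tables supplied the error. Within KO, the deposited table called 17 members higher and 10 lower of 87 at 24 h than at 22 °C, against 22.1% and 19.8% of all genes. The median was 0.08 on the deposited scale, and the summed level as a share of reads in listed genes had the opposite sign (log2 -0.15). Rpl35, a large subunit protein near the exit tunnel, had 53.1 RPKM at 24 h and 33.8 RPKM at 22 °C (log2 0.61, SE 0.17, adjusted p = 0.0011). Rpsa had 153 and 102 RPKM (log2 0.55, adjusted p = 2.4e-04), and Rpl7a had 224 and 151 RPKM (log2 0.53, adjusted p = 4.7e-05), in KO of the deposited table. Lower at 24 h were the shared Rps27 and Rps27rt reads (log2 -0.64, adjusted p = 3.4e-05 for Rps27, with 126 and 192 RPKM), Rps6 with 39.4 and 53.6 RPKM (log2 -0.48, adjusted p = 0.0018), Rps3a1 with 83.1 and 110 RPKM (log2 -0.44, adjusted p = 0.0059) and Rps4x with 155 and 204 RPKM (log2 -0.43, adjusted p = 0.0084). Rpl10 was lower as well (log2 -0.38, adjusted p = 0.013). Small subunit genes were split, with 6 higher and 6 lower among 31.

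Within Control, 12 members were higher and 1 lower at 24 h than at 22 °C in the deposited table, against 13.1% and 8.67% of all genes. The deposited median was 0.07, but the summed level was lower by log2 -0.02 of library totals, so no direction of the family can be given. Of 9 macrophage markers, 8 were higher at 24 h in the same table (list median 0.90), and their summed level was 174 RPKM at 24 h and 83.3 RPKM at 22 °C, a part in the result that was not tested. Rpl29 had 48.9 RPKM at 24 h and 35.1 RPKM at 22 °C (log2 0.54, SE 0.13, adjusted p = 8.1e-04), Rps2 had 255 and 195 RPKM (log2 0.46, adjusted p = 0.0012) and Rpl7a had 256 and 198 RPKM (log2 0.44, adjusted p = 0.0026). The member called lower was Rps3a1, with 99.9 and 144 RPKM (log2 -0.46, adjusted p = 0.0083). Rps16 had a larger deposited value, 0.67 in KO (SE 0.37, adjusted p = 0.14) and 0.78 in Control (SE 0.38, adjusted p = 0.13), yet did not pass in either, and it was singled out after its values were seen.

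The recovery effects of KO and Control share no library. Of the members called higher, 10 were shared, which is 58.8% of the 17 in KO and 83.3% of the 12 in Control. Among them were Rpl7a, Rpl19, Rpl22l1, Rpl23a, Rpl36al, Rpl41, Rps2, Rps26 and Rps29, and Rps3a1 was lower in both genotypes. The overlap of calls over all genes was not counted, so these shares cannot be read as particular to the family. Across the 78 subunit genes the deposited fold changes had a Pearson r of 0.81 and a Spearman rho of 0.79, with 61 of 78 of the same sign. Across 4920 other genes above a floor of 5 on the average log2 CPM, r was 0.60 and rho 0.62. That floor was not applied to the subunit genes, so these sets are not matched in abundance. Genes are not independent replicates, and the points share base composition. Transcript GC content of subunit genes ran between 42.7% and 61.2%, and its Spearman rho with the recovery effect was 0.25 in KO and 0.38 in Control, against -0.04 and 0.12 for other genes. Among the 26 subunit genes with the highest GC, 6 were higher and 3 lower in KO, and 7 were higher and 0 lower in Control. Among the 26 with the lowest GC, 2 were higher and 4 lower in KO, and 1 was higher and 1 lower in Control. Over all genes, 22.1% were called higher and 19.8% lower in KO, and 13.1% and 8.67% in Control. Other genes split at the same GC limits had Control medians of 0.10 (high) and -0.04 (low), against 0.08 and -0.04 for these subunit genes. In KO the other genes had -0.07 and -0.01, against 0.09 and -0.06. The part of base composition in these results was not tested. Of the 49 members sharing over 50% of their stretches 18 were called for recovery in KO and 10 in Control, against 9 and 3 of the other 38. Over all genes, 41.9% were called in KO and 21.8% in Control. For KO against Control the counts were 7 of 49 and 8 of the other 37 at 22 °C, 5 and 6 of the other 38 at 24 h, and 1 and 4 at 7 d. The shares called over all genes were 34.3%, 18.5% and 15.3% at these times. The differences between members with more and with less shared sequence were not tested.

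For 7 d of recovery against 22 °C no table was used here, so only ratios of the means can be given, without a test. In KO the median member stood at log2 0.01 relative to all genes, with 45 members higher and 42 lower, and the sign depends on the scale (-0.19 for the summed share of listed reads). In Control it stood at -0.24, with 14 higher and 73 lower, and the summed level was lower on both scales, by log2 -0.37 of library totals and -0.49 of listed reads. Rpl27a had 23.1 RPKM at 7 d and 39.2 RPKM at 22 °C in Control (log2 -0.65 relative to all genes), and Rpsa had 126 and 191 RPKM (log2 -0.49). In KO, Rpsa had 110 RPKM at 7 d and 102 RPKM at 22 °C.

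Paralogs and other members set apart held the largest fold changes of the family. Rpl22l1, the paralog of Rpl22, was high at 24 h in both genotypes, with 28.2, 40.3 and 29.6 RPKM in KO at 22 °C, 24 h and 7 d, and 20.7, 42.9 and 23.8 RPKM in Control. It was higher in KO at 22 °C (log2 0.67, SE 0.21, adjusted p = 0.0059), and higher at 24 h than at 22 °C in KO (log2 0.48, adjusted p = 0.042) and in Control (log2 1.10, SE 0.21, adjusted p = 4.8e-06), in the deposited tables. Rpl22 itself had a recovery effect of -0.38 in KO (adjusted p = 0.012) and -0.24 in Control (adjusted p = 0.18), so the pair had opposite signs. Rpl36al, the paralog of Rpl36a, had 16.2, 31.1 and 25.7 RPKM in KO and 24.2, 39.9 and 31.5 RPKM in Control over the same times, a recovery effect of 0.90 in KO (adjusted p = 3.5e-06) and 0.77 in Control (adjusted p = 1.8e-04). No KO effect on Rpl36al passed.

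Rps4l and Rpl7l1 were higher in KO. Rps4l, which GENCODE M21 lists as a transcribed processed pseudogene, had 16.4, 23.3 and 23.6 RPKM in KO at 22 °C, 24 h and 7 d, against 12.2, 13.2 and 12.3 RPKM in Control, and passed at each time (deposited log2 0.67, 0.96 and 0.98, adjusted p = 0.0011, 7.4e-07 and 8.2e-07). Rpl7l1, the paralog of Rpl7, had 17.8, 31.2 and 30.2 RPKM in KO and 20.7, 23.4 and 20.4 RPKM in Control. Its KO effect passed at 24 h (log2 0.56, adjusted p = 7.5e-04) and at 7 d (log2 0.63, adjusted p = 1.7e-04) but not at 22 °C (log2 0.02, adjusted p = 0.97), and within KO it was higher at 24 h than at 22 °C (log2 0.78, adjusted p = 1.5e-07). The difference of its KO effect was past the threshold for 7 d minus 22 °C, as given above, and not for 24 h minus 22 °C (0.54, adjusted p = 0.068). Taken instead as the recovery effect in KO minus that in Control, the same difference passed (0.54, adjusted p = 0.040), so its call rests on which tables supply the error.

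Rps27l, the paralog of Rps27 that p53 induces, had 80.8, 125 and 122 RPKM in KO and 138, 160 and 150 RPKM in Control. It was lower in KO at 22 °C (log2 -0.53, adjusted p = 4.1e-04) and, within KO, higher at 24 h than at 22 °C (log2 0.60, adjusted p = 4.7e-05), whereas Rps27 was lower at 24 h there. Rpl39l, the paralog of Rpl39 known from testis, had 1.86, 3.62 and 5.92 RPKM in KO against 0.90, 1.61 and 0.81 RPKM in Control. It passed at 7 d alone (8.30-fold, log2 3.05 with an interval of 1.74 to 4.37, adjusted p = 1.5e-04), on 42.3 reads per library in KO and 4.88 in Control on average, and its deposited log2 values of 1.34 at 22 °C and 1.29 at 24 h did not pass (adjusted p = 0.11 and 0.13). Rpl39 had no KO effect past the threshold. Rpl3l, the form of Rpl3 found in skeletal muscle and heart, had 0.30, 0.61 and 1.97 RPKM in KO and 0.41, 0.79 and 1.94 RPKM in Control, and no deposited comparison of it passed. Its higher means at 7 d moved with the skeletal muscle markers given above, and their part was not tested. Rps19bp1, which binds the S19 protein and is not a ribosomal protein, had 11.1 RPKM in KO and 8.26 RPKM in Control at 7 d (log2 0.52, adjusted p = 0.052).

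**Figure D4:**
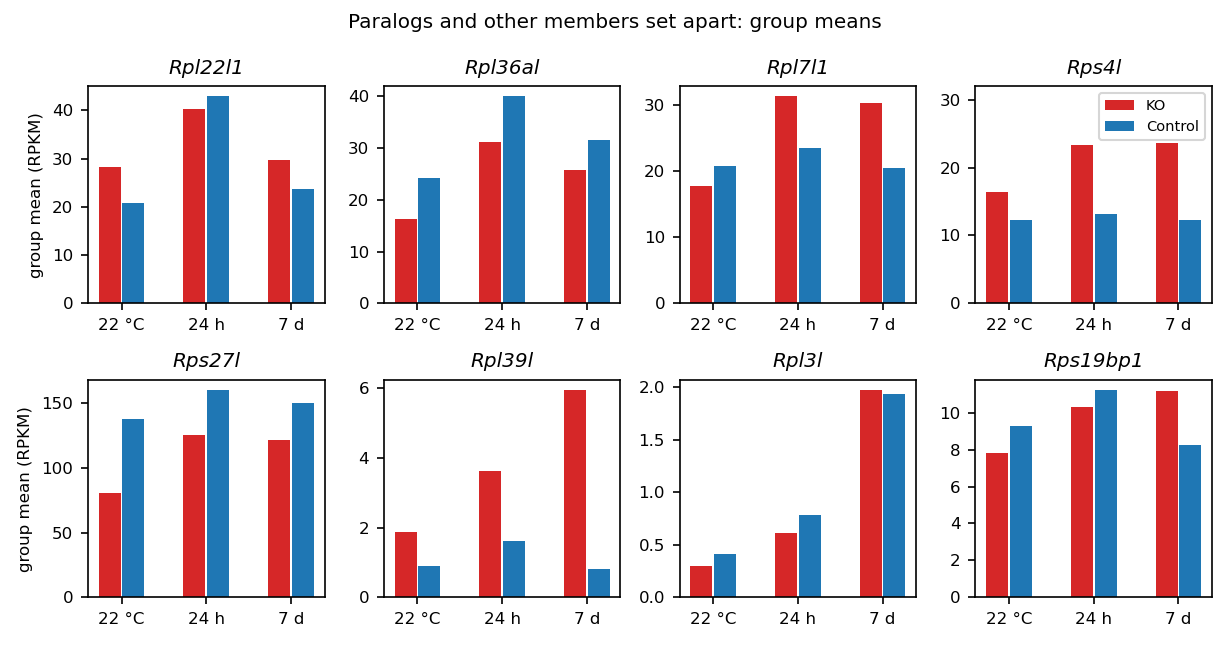
Group means in RPKM of 8 members set apart at 22 °C, 24 h and 7 d of recovery, with KO bars left of Control bars. No error bars are drawn because the tables hold no library values. Rps4l is higher in KO at each time, Rpl39l reaches 5.92 RPKM in KO at 7 d, and Rpl3l is at 1.97 RPKM in KO and 1.94 RPKM in Control at 7 d.

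Related genes were counted in the same tables. Over all genes, the shares called higher and lower were 16.3% and 18% in KO at 22 °C, 10.5% and 7.96% at 24 h and 9.18% and 6.14% at 7 d, and with recovery 22.1% and 19.8% in KO and 13.1% and 8.67% in Control, and each list count is to be read against them. Mitochondrial ribosomal protein genes were taken by name alone, Mrpl or Mrps followed by a digit, and the place of each product in that ribosome was not checked. The 77 genes so named were 0 higher and 51 lower in KO at 22 °C (median -0.53), 15 and 5 at 24 h (median 0.08), and 12 and 3 at 7 d (median 0.11). They were 72 higher and 0 lower at 24 h than at 22 °C in KO (median 1.00) and 34 and 0 in Control (median 0.34). Mrpl34 had 19.9 RPKM in KO and 81.7 RPKM in Control at 22 °C (3.48-fold lower, adjusted p = 3.5e-23), in the deposited table.

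Translation initiation and elongation factors (38 listed) were 5 higher and 5 lower in KO at 22 °C, 10 and 0 at 24 h, and 8 and 0 at 7 d, and 14 higher and 4 lower with recovery in KO and 6 and 4 in Control. At 22 °C both shares lay below those of all genes (16.3% and 18%). Eif1a, an initiation factor of start codon selection, had 34.3 RPKM in KO and 15.7 RPKM in Control at 24 h (2.44-fold, adjusted p = 6.7e-09). Nucleolar assembly factors (58 listed) were 3 higher and 12 lower in KO at 22 °C, 4 and 0 at 24 h, and 5 and 1 at 7 d, and 18 higher and 4 lower with recovery in KO and 5 and 3 in Control. Nop10, of the pseudouridylation complexes, had 32.4 RPKM in KO and 80.5 RPKM in Control at 22 °C (2.10-fold lower, adjusted p = 6.4e-12). RNA polymerase I genes (14 listed) were 1 higher and 2 lower, 4 and 1, and 3 and 0 in KO at the 3 times, and 3 and 2 with recovery in KO and 1 and 0 in Control. Rrn3, the factor that brings the polymerase to ribosomal DNA, was higher in KO at 24 h (1.73-fold, adjusted p = 1.9e-08).

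Genes of mTORC1 and MYC control (23 listed) were 7 higher and 3 lower in KO at 22 °C, 5 and 2 at 24 h, and 3 and 1 at 7 d, and 6 higher and 6 lower with recovery in KO (22 listed) and 4 and 1 in Control. The share called at 7 d, 4 of 23, was near the 15.3% of all genes. Mtor, the kinase itself, had 14.1 RPKM in KO and 26.8 RPKM in Control at 22 °C (1.62-fold lower, adjusted p = 3.5e-07). Eif4ebp1, a repressor of cap-dependent translation, had 186 and 96.0 RPKM (2.27-fold higher, adjusted p = 1.8e-11), and Larp1 had 11.4 and 7.81 RPKM (1.72-fold higher, adjusted p = 4.4e-08), in KO and Control at 22 °C. Noncoding and other hosts of small nucleolar RNAs (9 listed) were 3 higher and 0 lower in KO at 22 °C, and 0 higher and 5 lower with recovery in KO. Their calls in the other tables were 0 higher and 1 lower each. Ribosomal protein genes are such hosts too. Of 87 members, 30 (34.5%) hold 58 snoRNA genes within their bounds in GENCODE M21, against 2.42% of other listed genes. The deposited KO effect at 22 °C had a median of -0.17 over the 30 hosts and -0.09 over the 56 other members listed, while 0 hosts were called higher and 4 lower, against 2 and 9 of the others.

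**Figure D5:**
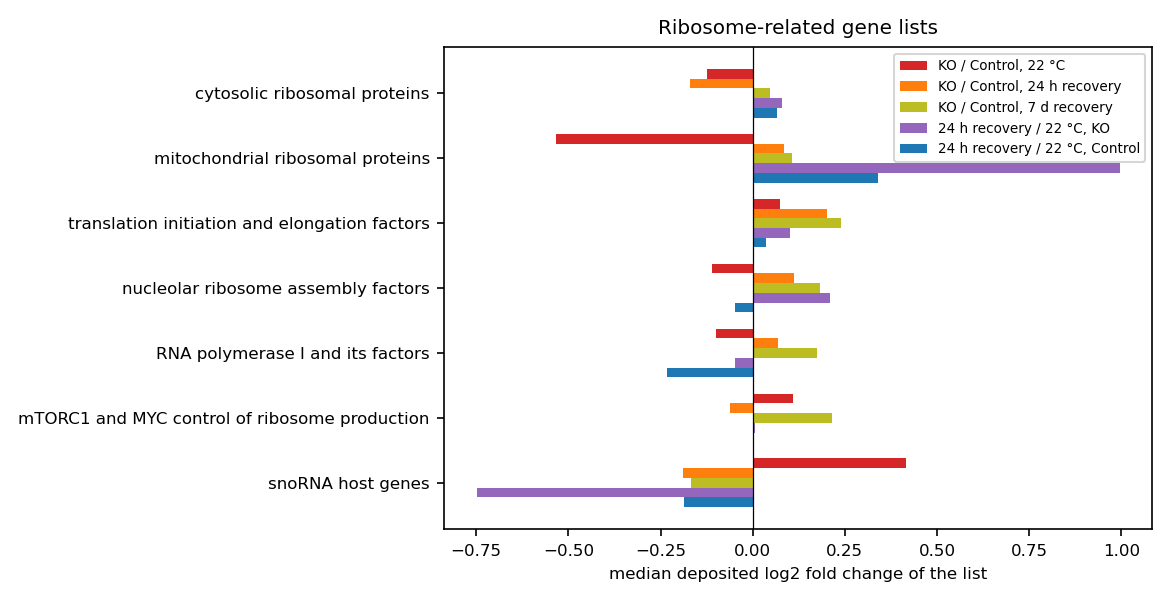
Median deposited log2 fold change of the cytosolic ribosomal protein genes and of 6 related gene lists in the 5 comparisons, with 1 bar for each comparison. Bars are medians over genes and carry no error. The mitochondrial ribosomal proteins reach -0.53 for KO against Control at 22 °C and 1.00 for recovery in KO, whereas the medians of the cytosolic family lie between -0.17 and 0.08.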

How the data were processed

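Total RNA of 24 interscapular brown fat samples was freed of ribosomal RNA with Ribo-Zero and made into libraries by a TruSeq method, as stated per the labels. The submitters' processing notes name STAR, featureCounts, edgeR and the build mm9, and give no versions or settings, so strand and shared reads are not described. The authors deposited 5 tables of comparisons, with the log2 fold change, the average log2 CPM, the p-value and its adjusted p-value per the file headers. The group means deposited by the authors carry no unit and were read as RPKM, because multiplying by gene length gave a CPM whose log2 gap to the deposited average was nearly constant (median -0.513). A gene is in a table where the higher of its means reaches 0.5 RPKM. The authors adjusted p over 13414 genes.

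The tables used here hold no value per library, so the count test of the design could not be run. The main test is the authors' adjusted p from edgeR under 0.05. Library totals come from what 1 read is worth in the means. Standard errors were rebuilt as the absolute log2 fold change over the normal score of p, for p up to 0.9. Differences of KO effects were tested with a two-sided normal test on these errors, with Benjamini-Hochberg adjustment over all genes. The script was tested on simulated data. No pseudocount was used in the main values. GENCODE M21 and RefSeq promoters (GRCm38.p6) supplied sequence, and all 87 symbols matched GENCODE. Coordinates of mm9 were not used. Analyses used Python 3.11.15, pandas 2.3.3, numpy 2.4.6 and SciPy 1.17.1. All columns were mapped, and 0 were left out.

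The members, gene lists and tests were chosen with earlier results of these data known. Named members are those called in a comparison with 8 or fewer in that direction (otherwise the 6 with the largest change), Rplp0, Rpsa, Rps6 and the members set apart, and the 3 highest and lowest by level. Of each gene list, called genes up to 4 by smallest p were eligible, and not all are printed. Some genes that the rule names are not reported here. Depth limits members with few reads.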

Additional observations from a re-analysis of the deposited data

Results flagged for a closer look

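The KO effect of 3 members differed between 7 d of recovery and 22 °C in the test of the difference itself. That is 4.41% of the 68 members with an error, against 14.8% of all genes, so members were called less often than genes at large. The difference was 0.61 log2 for Rpl7l1, 0.46 log2 for Rpl8 and 0.53 log2 for Rpsa, each as the KO effect at 7 d minus that at 22 °C. For Rpsa and Rpl8 the deposited KO effect was below 0 past the threshold at 22 °C and did not pass at 7 d, and for Rpl7l1 it passed at 7 d alone of these times. No cause was tested. Samples that stand apart within a group could not be looked for, since the tables hold group means.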

How the results depend on the processing

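No paired analysis was possible because the deposited columns hold group means and carry no replicate numbers, and for the same reason leaving out each replicate in turn was not run. With adjusted p under 0.01 the members called were 6 for KO against Control at 24 h, 3 at 7 d, 16 for recovery in KO and 8 for recovery in Control, and 0 for the difference of KO effects at 7 d and 22 °C. With a change of at least 1.5-fold they were 3 at 22 °C, 1 at 24 h, 3 at 7 d, 6 for recovery in KO and 2 for recovery in Control. Without the members set apart, and with a minimum of 5 on the average log2 CPM, the count at 7 d was 2 and 3. Without members that share over 50% of their 50-base stretches, an alternative chosen after seeing the data that leaves 38 members (37 at 22 °C), the counts were 8 at 22 °C, 6 at 24 h, 9 for recovery in KO and 3 for recovery in Control. Paired through the recovery tables, the difference of KO effects at 24 h and 22 °C called 1 member, Rpl7l1. As a share of listed reads, the summed log2 ratio was -0.38 at 22 °C, -0.37 at 24 h and -0.0856 at 7 d for KO against Control, -0.15 and -0.16 for 24 h recovery in KO and Control, and -0.19 and -0.49 for 7 d against 22 °C in KO and Control. The median for 7 d against 22 °C was 0.0625 in KO and -0.36 in Control without centring, -0.0115 and -0.26 without the members set apart, and 0.0222 and -0.27 with a pseudocount of 1. Of 81 single values of named members, 42 were called, and of these 42, 7 lost their call at 0.01 and 27 at 1.5-fold. Centring turned only Rplp0 for recovery in Control, to -0.0124. The other settings left counts within 1.5 times the main one. The cause was not tested where fewer genes or a stricter limit do not account for a change.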
